A study of Homo sapiens with 6 samples.

Results

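The human mitochondrial genome is a circle of 16569 bases with 37 genes, and all 37 are examined here in HT-1376 cells, a line established from a human bladder carcinoma. The members are the Ensembl genes that GENCODE release 44 places on chromosome M of GRCh38, and they are 37 of the 63241 genes in the deposited count table. They comprise 13 protein genes, 2 rRNA genes and 22 tRNA genes. The siSHMT2 group was transfected with an siRNA against SHMT2, the enzyme of the mitochondrial matrix that converts serine to glycine and a folate-bound carbon unit. The siNC group received a non-targeting siRNA. The cells of both groups were unedited apart from the siRNA and were collected 24 h after transfection, and 3 RNA-seq libraries were made for each group. The model is a single cell line, and a transient knockdown by 1 siRNA.

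Mitochondrial DNA is transcribed from both strands into long primary transcripts that are cut into single RNAs, mostly at the tRNAs that lie between the other genes. The transcript read from the heavy strand holds the 12S and 16S rRNAs and nearly all mRNAs. The transcript read from the light strand holds the mRNA of ND6, the remaining tRNAs and long stretches opposite the genes of the other strand, which are usually degraded quickly. The 13 proteins are subunits of the respiratory chain complexes I, III and IV and of the ATP synthase, complex V. The carbon units that SHMT2 supplies are used in mitochondria for formylmethionine, with which translation starts, and for a modified base of several mitochondrial tRNAs.

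The libraries held 533689 to 890574 counts, with siSHMT2 replicate 1 as the smallest. The study reports far more sequenced reads per sample than this, so the counts cover a small part of them, and why was not tested. The targeted gene SHMT2 had 28, 15 and 20 counts in siNC and 9, 2 and 5 in siSHMT2, so the groups did not overlap. Its log2 fold change was -1.78 with a standard error (SE) of 0.48. The unadjusted p was 5.6e-04 and the adjusted p 0.932 (edgeR, quasi-likelihood, Benjamini-Hochberg). In bulk RNA, fewer cells and less RNA per cell cannot be told apart. Of 14 urothelial and epithelial markers, all 14 had at least 10 counts in total, led by KRT8 with 13773. Of 10 markers of other cell types, 2 had at least 10 counts, ACTA2 with 82 and COL3A1 with 14. PTPRC, CD3E, VWF, DCN and DES were at 0. The library kit keeps the strand of the RNA, but the program that counted the reads and its strand setting are not named in the sources used here. TALAM1, which lies on the strand opposite MALAT1, held 138110 counts in total and MALAT1 itself 1916. Where a lncRNA and a protein gene overlap on opposite strands (976 pairs), the lncRNA held more counts in 588. The counts of a gene, mitochondrial ones included, may therefore be of the RNA opposite to it rather than of its own RNA. This was not tested further, and the heavy-strand and light-strand groups below are those of the annotation.

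The genes lie so close together that the ends of neighbours decide which gene a read is assigned to. Of the 36 boundaries between neighbouring genes, 20 have no base between the genes and at 5 the genes overlap. The windows of GRCh38 chromosome M below show such ends for the 3 genes with most counts and for the 2 pairs with the longest overlaps, each of 30 bases and read 5′ to 3′ on the strand of the gene.
End of MT-ND5, chrM:14131-14160, plus strand, with its stop codon in capitals: ctactcctaatcacaTAAcctattcccccg
End of MT-ND6, chrM:14137-14166, minus strand, with its last codon in capitals: attgctcgggggaatAGGttatgtgattag
Start of MT-ATP6 inside MT-ATP8, chrM:8515-8544, plus strand, with the start codon of MT-ATP6 in capitals: ctgagaaccaaaATGaacgaaaatctgttc
Overlap of MT-ND4L and MT-ND4, chrM:10748-10777, plus strand, with the shared bases in capitals: aaacctactccaATGCTAAaactaatcgtc
End of MT-ND4, chrM:12123-12152, plus strand, with its last base in capitals: ccgggttttcctctTgtaaatatagtttaa
MT-ND5 and MT-ND6 run towards each other and end on adjacent bases of opposite strands, so the windows overlap. MT-ND4 ends on a single T, and the tail of adenines added after cutting completes its stop codon. Of the 13 protein genes 6 end on such an incomplete codon. The 12 protein genes of the heavy-strand transcript hold 6.28% to 16.2% G, against 35.6% G in MT-ND6.

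The mitochondrial genes took up between 11.8% and 13.1% of every library, and the ranges of the groups overlapped. For replicates 1 to 3, their share of the counts was 11.8%, 12.6% and 11.8% with siNC and 12.4%, 13.1% and 11.98% with siSHMT2. The highest siNC value, in replicate 2, lay above 2 of the siSHMT2 values. The siNC mean was 12.05% ± 0.471 and the siSHMT2 mean 12.5% ± 0.578 (SD, n = 3 each). They differed by 0.46 percentage points, with p = 0.3 in an exact permutation test (two-sided, as all below). Without siSHMT2 replicate 2 the difference was 0.15 and without siSHMT2 replicate 3 it was 0.72, and without siNC replicate 2 it was 0.73. With 3 libraries against 3 such a test cannot go below 0.1, so no single share could pass 0.05. The 95% Wilson interval of the share in a single library reached at most 0.0885 points to either side and covers counting error only, since amplified reads are not independent molecules. The study calls its replicates biological, while the labels do not say whether they came from separate cultures, and the p-values measure the spread between these libraries.

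The 28 genes of the heavy-strand transcript held most of the mitochondrial counts. Their share was 9.64%, 10.4% and 9.87% in siNC and 9.67%, 10.6% and 10.1% in siSHMT2. The groups overlapped and the means differed by 0.16 percentage points (exact permutation p = 0.6), a difference that turned to -0.079 without siSHMT2 replicate 2 and to -0.0061 without siNC replicate 1. The 9 genes of the light-strand transcript held 2.13%, 2.17% and 1.90% in siNC and 2.74%, 2.50% and 1.85% in siSHMT2. MT-ND6 alone had 98918 of their 98922 counts over the 6 libraries, so this share is nearly that of MT-ND6. Here siSHMT2 replicates 1 and 2 lay above all siNC libraries, and siSHMT2 replicate 3 was the lowest of the 6. The siNC mean was 2.07% ± 0.143 and the siSHMT2 mean 2.37% ± 0.458 (SD, n = 3 each, exact permutation p = 0.4). The difference of 0.30 percentage points was 0.11 without siSHMT2 replicate 1 and 0.55 without siSHMT2 replicate 3.

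**Figure D1:**
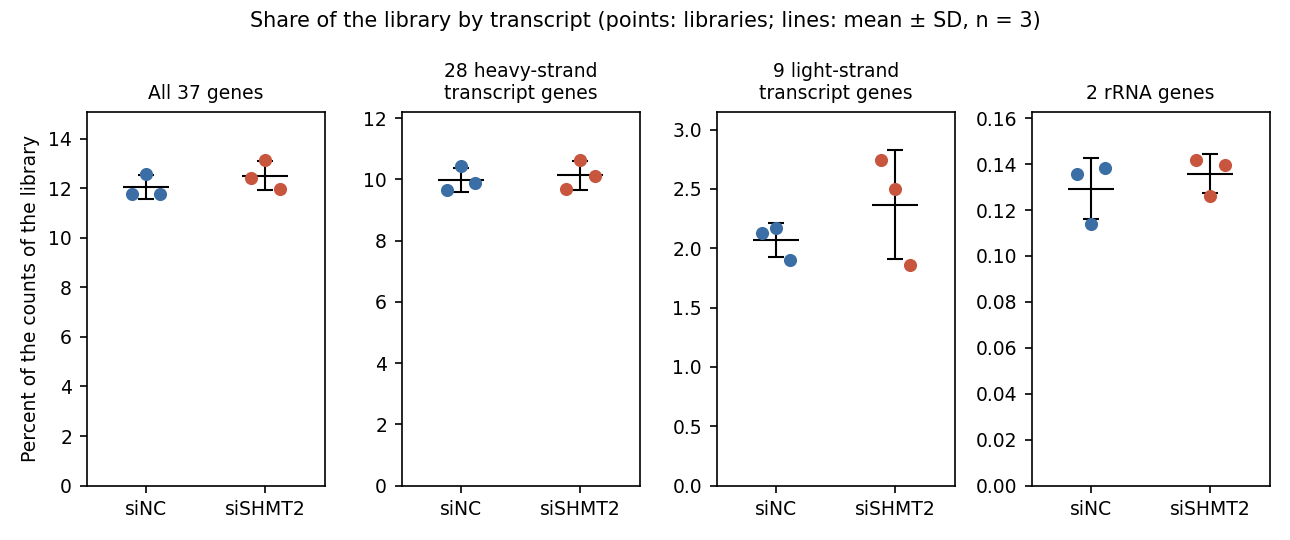
Percent of the counts of each library (vertical axis, from 0) on all 37 mitochondrial genes, on the 28 heavy-strand and the 9 light-strand transcript genes and on the 2 rRNA genes, with points for libraries and lines for the mean ± SD (n = 3). The groups overlap in every panel, and the light-strand values of siSHMT2, nearly all from MT-ND6, reach from 1.85% to 2.74%.

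By gene class, the 13 protein genes held 549614 of the 555641 mitochondrial counts summed over the 6 libraries, the 2 rRNA genes 6018 and the 22 tRNA genes 9. The protein share was 11.9% ± 0.484 with siNC and 12.4% ± 0.585 with siSHMT2 (SD, n = 3 each, exact permutation p = 0.3). By respiratory complex, the 7 subunit genes of complex I held 9.70% ± 0.460 of the library in siNC and 10.1% ± 0.520 in siSHMT2 (SD, n = 3). The 3 genes of complex IV held 1.57% ± 0.022 and 1.58% ± 0.087, the 1 gene of complex III 0.312% ± 0.025 and 0.334% ± 0.021, and the 2 genes of complex V 0.327% ± 0.0094 and 0.327% ± 0.013, in the same order (SD, n = 3). MT-ND4, MT-ND5 and MT-ND6, 3 complex I genes, made up 72.0% to 73.9% of the mitochondrial counts of a library with 24.1% of the summed gene length. These 3 were singled out after their values were seen.

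MT-ND6 (ENSG00000198695, chrM:14149-14673, minus strand) is the only protein gene of the light-strand transcript and encodes a membrane subunit of complex I. Its mRNA is known to lack the stable poly(A) tail of the other mitochondrial mRNAs, and the libraries were made with beads that capture mRNA. It had 17414, 14322 and 16957 counts in siNC and 14627, 20479 and 15119 in siSHMT2. In CPM, counts scaled to the same total for each library, this was 21295, 21682 and 19041 in siNC and 27407, 25009 and 18550 in siSHMT2. The siSHMT2 libraries included both the highest 2 values and the lowest value. Whether these counts are of the MT-ND6 mRNA or of the RNA opposite to it was not tested. The log2 fold change was 0.20 (SE 0.10), with an unadjusted p of 0.063 and an adjusted p of 0.999 (edgeR), and the interval of 2 standard errors ran from -0.0097 to 0.40. It was 0.083 without siSHMT2 replicate 1 and 0.35 without siSHMT2 replicate 3.

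MT-ND5 (ENSG00000198786, chrM:12337-14148, plus strand) encodes another membrane subunit of complex I and had the highest count of all genes in every library. It held 39655, 36292 and 44434 counts in siNC and 26242, 45162 and 41874 in siSHMT2. This was 4.85%, 5.49% and 4.99% of the library in siNC and 4.92%, 5.52% and 5.14% in siSHMT2, and the groups interleaved. The log2 fold change of 0.021 (SE 0.087) had an interval of 2 standard errors from -0.15 to 0.20. MT-ND4 (ENSG00000198886, chrM:10760-12137, plus strand) encodes a further complex I subunit and had rank 5 by count in every library. It had 13874, 10732 and 14160 counts in siNC and 8091, 13352 and 13711 in siSHMT2. Its share lay between 1.52% and 1.70% of the library in all 6, with the extremes in siSHMT2 replicate 1 and siNC replicate 1, and its log2 fold change was -0.024 (SE 0.086).

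The ratio of light-strand to heavy-strand counts takes out the depth of a library, since both sets are read from the same library. Per kb of gene it was 2.94, 2.77 and 2.57 in siNC and 3.77, 3.13 and 2.44 in siSHMT2. siSHMT2 held both the highest and the lowest ratio. The difference was 0.15 on the log2 scale (exact permutation p = 0.5). Without siSHMT2 replicate 1 it was 0.0052 and without siSHMT2 replicate 3 it was 0.32. The size of the ratio depends on the length of the tRNA genes, which held 9 counts in all. With protein genes only, the ratio was 4.64, 4.36 and 4.05 in siNC and 5.95, 4.93 and 3.85 in siSHMT2. MT-ND6 against MT-ND5 alone gave 1.52, 1.36 and 1.32 in siNC and 1.92, 1.57 and 1.25 in siSHMT2, with the same library lowest. In contrast, MT-ND5 against the other 11 heavy-strand protein genes stayed between 5.20 and 5.71 in all libraries, with means of 5.39 ± 0.276 in siNC and 5.39 ± 0.130 in siSHMT2 (SD, n = 3).

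The remaining complex I genes had lower counts. MT-ND1 had 1866, 1805 and 2348 counts in siNC and 1310, 2474 and 2390 in siSHMT2, with a log2 fold change of 0.14 (SE 0.10). This was 0.054 without siNC replicate 1, 0.064 without siSHMT2 replicate 2, 0.23 without siNC replicate 2 and 0.23 without siSHMT2 replicate 1. MT-ND2 had 2213, 2304 and 3108 counts in siNC and 1845, 3079 and 3099 in siSHMT2. In CPM it stood at 2706, 3488 and 3490 with siNC and at 3457, 3760 and 3802 with siSHMT2, so siSHMT2 replicate 1 fell inside the siNC range and siNC replicate 1 stood below all others. The log2 fold change was 0.19 (SE 0.10), with an unadjusted p of 0.074 and an adjusted p of 0.999 (edgeR), and it was 0.065 without siNC replicate 1. MT-ND3 had 1814, 1725 and 2074 counts in siNC and 1241, 2289 and 1875 in siSHMT2, with a log2 fold change of 0.054 (SE 0.10). MT-ND4L, the smallest complex I gene, had 635, 410 and 652 counts in siNC and 402, 604 and 528 in siSHMT2, with a log2 fold change of 0.0081 (SE 0.11). None of these 4 genes had groups that lay apart in CPM.

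MT-CYB encodes cytochrome b, the mitochondrial subunit of complex III, and had 2340, 2087 and 2982 counts in siNC and 1705, 2646 and 2918 in siSHMT2. Its log2 fold change was 0.095 (SE 0.095), and 0.026 without siNC replicate 1, 0.054 without siSHMT2 replicate 3 and 0.14 without siNC replicate 2. The catalytic subunits of cytochrome c oxidase, complex IV, are encoded by MT-CO1 and MT-CO2. MT-CO1 had 2098, 1641 and 2404 counts in siNC and 1274, 2151 and 2001 in siSHMT2, with a log2 fold change of -0.050 (SE 0.095). MT-CO2 had 2684, 2099 and 2661 counts in siNC and 1856, 2686 and 2234 in siSHMT2, with a log2 fold change of 0.0086 (SE 0.099). In CPM, the highest and the lowest MT-CO2 value, 3478 and 2741, were both from siSHMT2. MT-CO3, the third subunit of complex IV, had 7969, 6829 and 8864 counts in siNC and 5231, 8843 and 7967 in siSHMT2, with a log2 fold change of 0.017 (SE 0.090).

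MT-ATP8 and MT-ATP6 encode subunits of the membrane part of the ATP synthase and are known to share a single mRNA, on which they overlap by 46 bases. MT-ATP8 had 828, 549 and 830 counts in siNC and 422, 733 and 897 in siSHMT2, with a log2 fold change of 0.012 (SE 0.11). MT-ATP6 had 1764, 1609 and 2161 counts in siNC and 1256, 1927 and 1881 in siSHMT2, with a log2 fold change of -8.9e-04 (SE 0.097). MT-ATP6 thus had the value closest to 0 of the 15 genes tested, and its sign turned with RLE size factors (0.0047) and with library size only (0.00024). The level per kb of MT-ATP8 was 1.54, 1.12 and 1.26 times that of MT-ATP6 in siNC and 1.11, 1.25 and 1.57 times in siSHMT2. MT-ND4L and MT-ND4 also share an mRNA and overlap by 7 bases, but MT-ND4 had 4.34 to 5.64 times the level per kb of MT-ND4L. How reads that touch both genes of such a pair were counted is not given in the sources used here.

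The rRNA genes encode the RNAs of the small and the large subunit of the mitochondrial ribosome. MT-RNR2, the 16S rRNA, had 1027, 698 and 1091 counts in siNC and 681, 955 and 1057 in siSHMT2, with a log2 fold change of 0.082 (SE 0.10). MT-RNR1, the 12S rRNA, had 83, 55 and 139 counts in siNC and 75, 77 and 80 in siSHMT2. Its CPM was 101, 83.3 and 156 in siNC and 141, 94.0 and 98.2 in siSHMT2, so the siNC libraries held both extremes. The log2 fold change of -0.072 (SE 0.20) was the least precise among the 15 genes and was 0.21 without siNC replicate 3. Together the rRNA genes took up 0.129% ± 0.013 of the library in siNC and 0.136% ± 0.0085 in siSHMT2 (SD, n = 3 each, exact permutation p = 0.5), and the order of the means turned without siNC replicate 2. Per kb, MT-RNR2 stood 4.80 to 8.09 times above MT-RNR1.

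Mitochondrial tRNAs decode the 13 mRNAs inside the organelle and are short RNAs without a poly(A) tail. The 14 tRNA genes of the heavy-strand transcript had 5 counts in total and the 8 of the light-strand transcript 4. Of the 22, 7 had any count: MT-TR and MT-TY had 2 each, and MT-TI, MT-TM, MT-TC, MT-TH and MT-TP 1 each. By library the sum over all 22 was 1, 3 and 2 in siNC and 1 in each siSHMT2 replicate. A count of 0 in a library allows up to 3 counts, which is 3.37 CPM at the highest and 5.62 CPM at the lowest depth. No fold change is given for these genes, since each had fewer than 60 counts over the 6 libraries. With 9 counts in all, these libraries allow no comparison of the tRNAs between siSHMT2 and siNC.

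The 15 genes with 60 or more counts, all protein and rRNA genes, were tested among 7207 genes that remained after low counts were removed. Of these 15, 0 were called at an adjusted p under 0.05 with a fold change over 1.5, and 0 had an unadjusted p under 0.05 with edgeR or with DESeq2, which gave 117 such genes in all. Among all genes tested with edgeR, 0% were called by the first rule and 3.84% had an unadjusted p under 0.05. The groups lay apart in 0 of the 15 genes, against 9.2% of all genes tested. The fold change was above 0 for 11 and below 0 for 4 of the 15, with MT-ATP6 the only one of the 4 to turn under those scalings. The median log2 fold change was 0.017, from -0.072 for MT-RNR1 to 0.20 for MT-ND6, beside a median of -0.0010 over all genes tested. The intervals of 2 standard errors covered 0 for every one of the 15 and stayed within the fold change of 1.5 in either direction. A p above the threshold does not show that the levels were equal, and the intervals give the size of change these libraries leave possible.

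**Figure D2:**
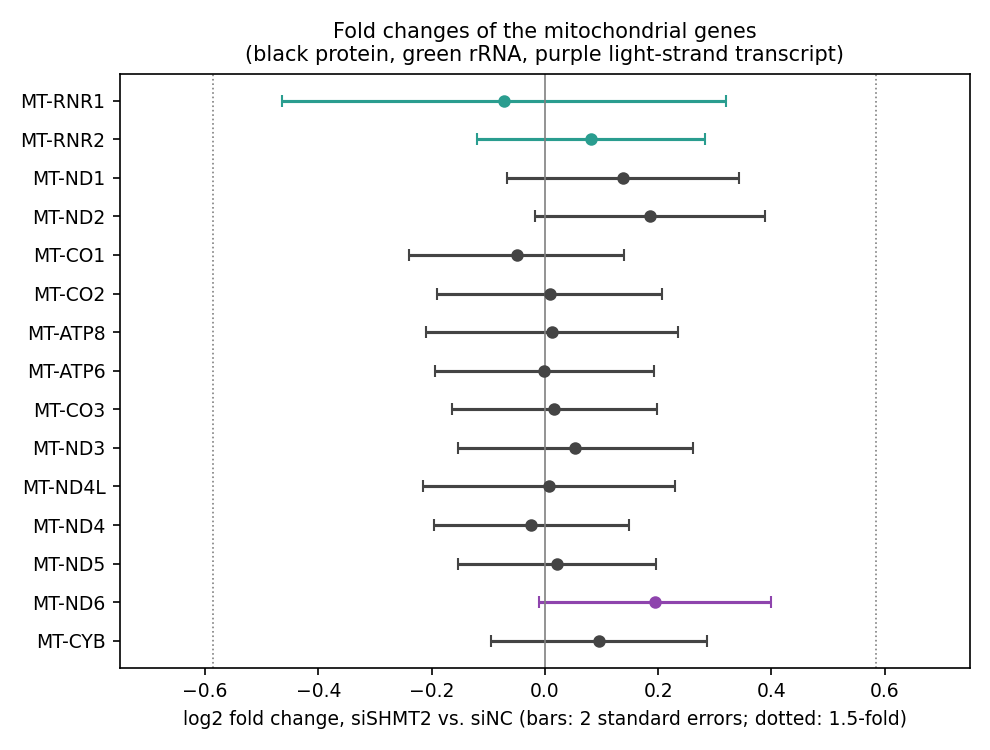
Log2 fold change of each of the 15 genes in siSHMT2 vs. siNC (horizontal axis), in order on the genome from top to bottom, with bars of 2 standard errors from the edgeR fit and dotted lines at a fold change of 1.5. Every bar crosses 0, and MT-ND6 at 0.20 and MT-ND2 at 0.19 lie farthest to the right.

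Levels were compared between genes as CPM per kb of gene length. They are levels by annotated gene, and whether they are of its own RNA or of the RNA opposite was not tested. MT-ND6 was the highest with a mean of 42217 over the 6 libraries (35332 to 52204), then MT-ND5 with 28424 (26762 to 30437), MT-CO3 with 12843, MT-ND4 with 11780 and MT-ND3 with 7023. Each of these 5 genes stood above the next in all 6 libraries and their ranges did not overlap. MT-CO2 with 4617 and MT-ATP8 with 4478 came next and were not in a fixed order, MT-CO2 being higher in 3 of 6 libraries. MT-ATP6 (3435), MT-ND2 (3311), MT-CYB (2830), MT-ND1 (2800) and MT-ND4L (2395) followed, and each range overlapped that of the next of these genes. MT-CO1 (1645), MT-RNR2 (778) and MT-RNR1 (118) were the lowest, each clear of its neighbours.

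**Figure D3:**
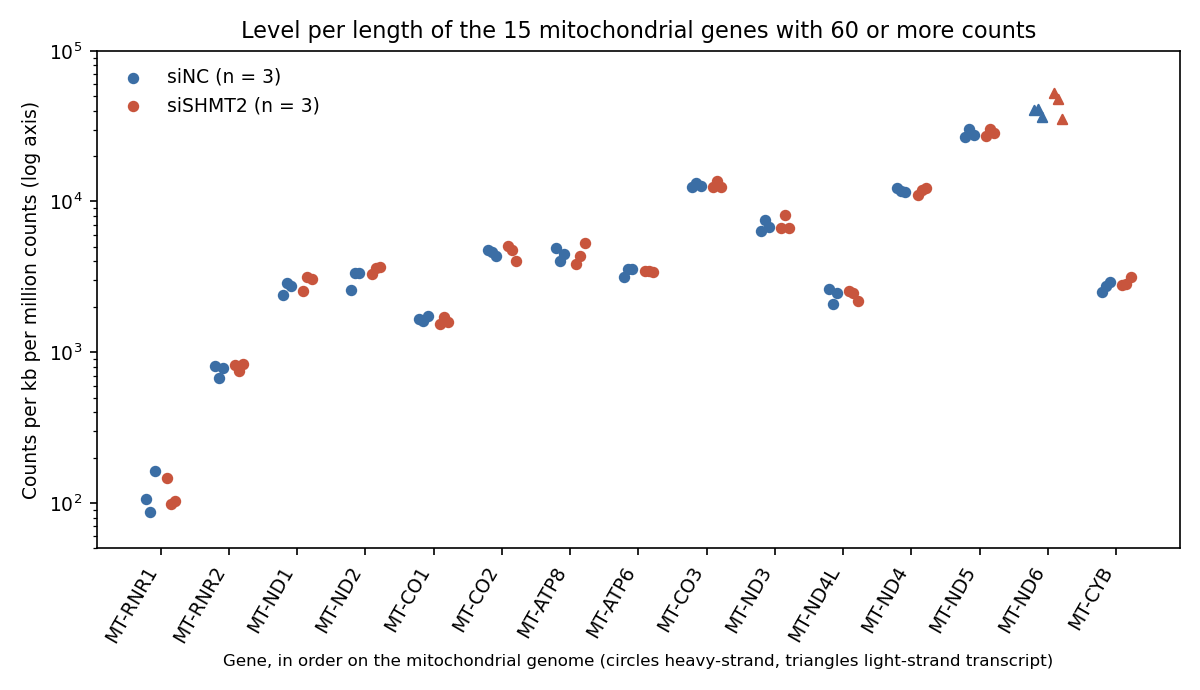
CPM per kb of gene length (vertical log axis) of the 15 genes in order on the mitochondrial genome, with 3 libraries per group, circles for the heavy-strand and triangles for the light-strand transcript. MT-RNR1 lies lowest at a mean of 118 and MT-ND6 highest at 42217, and each gene is shown for both groups.

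The spread between replicates was set against counting noise, the coefficient of variation (CV) that the number of reads alone would give. Separate libraries vary by more than counting, and the comparison serves to show how well each gene was measured. The CV of the CPM values had a median over the 15 genes of 7.86% in siNC and 6.38% in siSHMT2. MT-ATP6 in siSHMT2 had a CV of 1.12% against 2.48% from counting, the single case below counting noise. MT-ND6 had a CV of 19.4% in siSHMT2 against 0.782% from counting, the highest ratio of both, while in siNC its CV was 6.90%. For MT-RNR1 the CV was 33.3% in siNC and 23.2% in siSHMT2, with 11.2% and 11.4% from counting. The CVs rest on 3 libraries each and the difference between the groups was not tested.

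**Figure D4:**
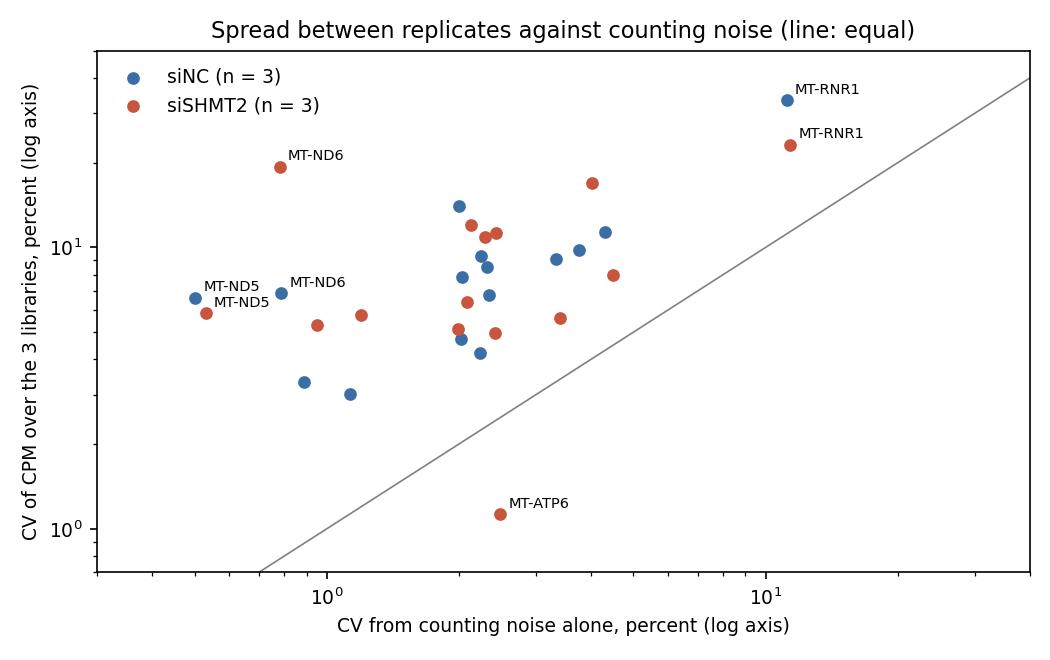
CV of the CPM values over the 3 libraries of a group (vertical axis) against the CV from counting noise (horizontal axis), both in percent on log axes, for the 15 genes in siNC and siSHMT2, with a line where both are equal. On these log axes MT-ND6 in siSHMT2 lies farthest above the line at 19.4%, and MT-ATP6 in siSHMT2 is the single point under it.

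Copies of mitochondrial DNA in the nuclear genome can share reads with the members. The longest copy at 98% identity or more covers chromosome 1 from 629081 to 634924 of GRCh38 and matches 98.5% of the aligned bases from 3911 to 9755 of the mitochondrial genome. MT-ND2, MT-CO1, MT-CO2, MT-ATP8 and MT-ATP6 lie inside such copies in full, MT-CO3 with 70.0%, MT-ND1 with 36.8% and MT-RNR1 with 36.8% of their bases. Their counts are uncertain to that extent, since how reads with several matches were treated is not given. MT-RNR2, MT-ND3, MT-ND4L, MT-ND4, MT-ND5, MT-ND6 and MT-CYB have no base in a copy of at least 100 bases with 98% identity or more overall. Near-identical stretches inside copies of lower identity were not looked for, so reads of these genes may also be shared. The 404 annotated nuclear pseudogenes in the table, all copies of mitochondrial protein genes, held 3392 counts in total, or 0.071% to 0.081% of a library. MTATP6P1 on chromosome 1 accounted for 2711 of them, 25.7% as many together with the other MT-ATP6 copies as MT-ATP6 itself. It had 465, 378 and 581 counts with siNC and 351, 456 and 480 with siSHMT2. MTND2P28 followed with 285 counts and MTND5P11 with 64.

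Nuclear genes make, cut, modify and degrade mitochondrial RNA. Of 60 such genes in 4 lists, 26 had enough counts to be tested, and 1 was higher and 0 were lower at an unadjusted p under 0.05, against 1.94% and 1.9% of all genes tested. With edgeR, 0 were past 0.05 after adjustment, and DESeq2 gave 0 also without adjustment. The median log2 fold change of the 26 was -0.0088. The count was 0 without siNC replicate 1 or siSHMT2 replicate 2, and 2 without siNC replicate 2, siNC replicate 3 or siSHMT2 replicate 3. The 1 gene was TRMU, which adds sulfur to the wobble base of the mitochondrial tRNAs for lysine, glutamine and glutamate. It had 10, 10 and 16 counts in siNC and 16, 27 and 18 in siSHMT2, with a log2 fold change of 0.90 (SE 0.37, adjusted p = 0.999).

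In the list for transcription and replication of mitochondrial DNA, 8 of 14 genes were tested and 0 passed in either direction. POLG, the catalytic subunit of the mitochondrial DNA polymerase, had 1231 counts in total and a log2 fold change of -0.054 (SE 0.13). TEFM, an elongation factor of mitochondrial transcription, had 340 counts and -0.060 (SE 0.21). In the list for processing, 6 of 14 were tested and 0 passed. TRNT1, which adds the CCA end to tRNAs, had 1899 counts and a log2 fold change of -0.038 (SE 0.12), and PTCD1 had 1226 counts and -0.16 (SE 0.14). Of the genes tested, 4 were above and 4 below 0 in the list for transcription and replication (median 0.073), and 2 above and 4 below in that for processing (median -0.097).

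In the list for stability and decay, 5 of 8 genes were tested and 0 passed. LRPPRC, which holds mitochondrial mRNAs stable, had 55, 37 and 42 counts in siNC and 14, 32 and 47 in siSHMT2, with a log2 fold change of -0.42 (SE 0.27). GRSF1, an RNA-binding protein of the mitochondrial RNA granules, had 149 counts in total and a log2 fold change of 0.18 (SE 0.30). In the list for modification of tRNA and rRNA, 7 of 24 were tested. NSUN2, a methyltransferase of tRNA cytosines, had 474 counts and a log2 fold change of 0.0079 (SE 0.18). TRUB2, a pseudouridine synthase, had 174 counts and -0.43 (SE 0.28). The median of all 60 genes was 45 counts over the 6 libraries, far below the mitochondrial protein genes.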

How the data were processed

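RNA-seq of 3 siNC and 3 siSHMT2 samples was analysed from a count table. Per the labels and the methods, the authors captured mRNA, made strand-specific libraries, trimmed reads with fastp 0.23.4 and aligned them to GRCh38 with HISAT2 2.2.1. The deposited counts are whole reads per Ensembl gene without normalization. The deposited FPKM values list no length and an FPKM of 0 for all 37 mitochondrial genes, so FPKM served only in the alternatives for nuclear genes. GENCODE release 44 gave positions and lengths.

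Shares are counts as a percentage of the library total. The whole table was tested in R 4.3.3 with edgeR 4.0.16 (TMM, filterByExpr, quasi-likelihood, Benjamini-Hochberg over 7207 genes) and shares by two-sided exact permutation tests. Groups lay apart when no log2 CPM values overlapped (prior count 2 for all genes). Standard errors are the absolute log2 fold change over the root of the F statistic. Nuclear copies were found with blastn 2.17.0. The fit was tested on simulated data. DESeq2 1.42.0, limma 3.58.1 on FPKM, other scalings and filters, a replicate block and leaving out each library were the alternatives. The members, lists and the rule for named genes (members from 60 counts, SHMT2, the 2 tested genes with most counts per list, genes with an unadjusted p under 0.05, the 3 pseudogenes with most counts) were chosen with earlier results of these data known.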

Additional observations from a re-analysis of the deposited data

How the results depend on the processing

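The number of mitochondrial genes called was 0 in each of the 12 alternatives in which they could be tested; limma on FPKM could not be run for them, since they have no FPKM. Of 180 fold changes of the 15 genes under these alternatives, 151 kept their direction and 29 did not, and 6 genes (MT-RNR2, MT-ND1, MT-ND2, MT-CO1, MT-ND6 and MT-CYB) kept it throughout, with an adjusted p of at least 0.433. MT-ATP6, at -8.9e-04, turned to 0.0047 with RLE size factors, 0.00024 with library size only, 0.0010 with the replicate block and 0.0049 with DESeq2. With 1 library left out the log2 fold changes that turned reached from -0.066 to 0.070 for MT-ATP6, -0.11 to 0.11 for MT-ATP8, -0.057 to 0.11 for MT-CO2, -0.049 to 0.083 for MT-CO3, -0.062 to 0.17 for MT-ND3, -0.066 to 0.021 for MT-ND4, -0.041 to 0.085 for MT-ND4L, -0.042 to 0.12 for MT-ND5 and -0.25 to 0.21 for MT-RNR1. Those of the 6 others reached from 0.054 to 0.23 for MT-ND1, 0.065 to 0.29 for MT-ND2, 0.083 to 0.35 for MT-ND6, 0.026 to 0.14 for MT-CYB, 0.046 to 0.12 for MT-RNR2 and -0.11 to -0.016 for MT-CO1. The difference in the heavy-strand share was from -0.079 to 0.39 percentage points, below 0 without siSHMT2 replicate 2 and without siNC replicate 1 (-0.0061), and that of the rRNA share from -0.0012 to 0.011, below 0 without siNC replicate 2. The total share differed by 0.15 (without siSHMT2 replicate 2) to 0.73 points (without siNC replicate 2), and by 0.38 without MT-ND5, a setting added after the data were seen. Among the nuclear lists the number with an unadjusted p under 0.05 was 1 as reported, 2 without the filter on low counts, 0 with DESeq2 and 0 to 2 with 1 library left out; the cause was not tested. Libraries of equal number did not deviate together (r from -0.015 to 0.048 for the 3 pairs, and not every library was closest to its own number), and the replicate block, which gave 0.18 for MT-ND6 with an adjusted p of 0.433, changed no call. SHMT2 had a log2 fold change from -2.58 (without siSHMT2 replicate 1) to -1.31 (without siSHMT2 replicate 2) and was left untested where each library had to reach 10 counts. The 9 counts of the tRNA genes left no fold change to give.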
